A study of Mus musculus with 20 samples.

Results

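The genes described here are 9 LIM homeobox genes, Lhx1, Lhx2, Lhx3, Lhx4, Lhx5, Lhx6, Lhx8, Lmx1a and Lmx1b, taken by symbol from a list fixed for this family out of the 43280 gene symbols that were counted. They were followed in RNA-seq libraries of sorted mouse gut mesenchyme at E13.5 (8 libraries) and in adulthood (4 libraries), and in 4 lists of ATAC-seq peaks, which mark open chromatin. The embryonic cells were GFP+ cells of stomach or intestine. Their strain is labelled C57BL/6, whereas the study's methods give a mixed background for the floxed Eed and reporter alleles. Control embryos carried Bapx1-cre;Rosa26mTmG, and Eed KO embryos carried Eedfl/fl;Bapx1-cre;Rosa26mTmG, so both genotypes had the Cre driver, which acts in gut mesenchyme, and the reporter that turns cells green where Cre has acted. The adult cells came from the small intestine of tamoxifen-treated mice, labelled WT or EED-KO, in which Pdgfrb-CreERT2 and the same reporter were used, so deletion there was limited to cells in which the Pdgfrb driver was active. On GRCm38 (mm10), as in the count files, 4 members lie on chromosome 2: Lhx3 (chr2:26200212-26208289), Lmx1b (chr2:33560965-33640511), Lhx6 (chr2:36081953-36105408) and Lhx2 (chr2:38339281-38369733). Chromosome 1 holds Lhx4 (chr1:155698031-155751684) and Lmx1a (chr1:167689237-167848741). Lhx8 lies at chr3:154306294-154330561, Lhx5 at chr5:120431770-120441223 and Lhx1 at chr11:84518284-84525535. Each group had 2 libraries, which the study describes as biological replicates.

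LIM homeobox genes encode transcription factors that pair a DNA-binding homeodomain with LIM domains, through which they bind the adaptor Ldb1 and each other. They set cell identity in the embryo, above all in the nervous system, the pituitary and the limb. Many are carried in other tissues under H3K27me3, the repressive histone mark placed by Polycomb repressive complex 2 (PRC2), of which Eed is a core subunit, and promoters of that kind are often rich in CG dinucleotides.

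The sequence ahead of the start was read for the members to show what kind of promoter each has. RefSeq windows (GRCm38.p6) were matched for 8 of the 9 members, in 12 windows of 250 bases directly before an annotated start. Lhx1 had 26 CG dinucleotides in its window and Lhx2 had 25 in the window of its outer start. The window of Lhx6 that abuts its outer start had 14, the Lhx3 window nearest to its gene start in the count files had 11, and Lhx8 had 4. The median over 32851 annotated windows was 6. Thus Lhx8, which rose in both organs, had fewer CG than the typical window, and the other 4 had more. A count of at least 15 was met by 6 of the 12 member windows and by 27.3% of all windows. The letters TAATTA, the core that many homeodomains recognise and which reads the same on both strands, were absent from all 12 windows and present in 4.84% of all windows. The 5 windows are shown 5′ to 3′ because they cover the 2 members that rose in both organs (Lhx6 and Lhx8), the 2 richest in CG (Lhx1 and Lhx2) and Lhx3, which had the strongest promoter peak and almost no reads. Capitals mark CG.
Lhx1 (chr11:84525535-84525784, minus strand): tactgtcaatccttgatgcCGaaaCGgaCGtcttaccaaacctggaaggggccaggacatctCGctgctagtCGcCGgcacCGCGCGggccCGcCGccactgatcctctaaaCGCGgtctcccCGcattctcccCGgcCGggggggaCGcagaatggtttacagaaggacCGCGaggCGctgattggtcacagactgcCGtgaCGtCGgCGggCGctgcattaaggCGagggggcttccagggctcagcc
Lhx2 (chr2:38339031-38339280, plus strand): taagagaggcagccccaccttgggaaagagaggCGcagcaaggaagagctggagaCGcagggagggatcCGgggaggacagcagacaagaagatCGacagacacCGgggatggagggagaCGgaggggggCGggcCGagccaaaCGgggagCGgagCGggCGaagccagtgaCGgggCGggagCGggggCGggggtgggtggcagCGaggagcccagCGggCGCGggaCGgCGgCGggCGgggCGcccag
Lhx3 (chr2:26208250-26208499, minus strand): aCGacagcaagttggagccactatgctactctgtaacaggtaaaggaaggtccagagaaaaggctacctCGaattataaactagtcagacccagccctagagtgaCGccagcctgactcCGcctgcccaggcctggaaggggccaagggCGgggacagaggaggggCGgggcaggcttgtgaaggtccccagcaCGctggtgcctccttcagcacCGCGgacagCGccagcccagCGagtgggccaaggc
Lhx6 (chr2:36105409-36105658, minus strand): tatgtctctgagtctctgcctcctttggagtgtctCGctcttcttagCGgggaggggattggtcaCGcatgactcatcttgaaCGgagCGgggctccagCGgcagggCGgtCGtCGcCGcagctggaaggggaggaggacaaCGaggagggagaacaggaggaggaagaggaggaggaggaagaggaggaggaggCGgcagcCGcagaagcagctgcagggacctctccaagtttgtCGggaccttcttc
Lhx8 (chr3:154330561-154330810, minus strand): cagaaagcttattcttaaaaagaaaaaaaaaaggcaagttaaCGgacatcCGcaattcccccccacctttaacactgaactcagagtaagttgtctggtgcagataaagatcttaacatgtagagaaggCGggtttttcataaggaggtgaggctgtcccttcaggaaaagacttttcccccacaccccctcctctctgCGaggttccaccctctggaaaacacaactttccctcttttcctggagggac

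Deletion was first checked on Eed itself. Eed had 1382 and 1627 counts in control stomach against 427 and 270 in Eed KO stomach, and 1356 and 1193 in control intestine against 407 and 301 in Eed KO intestine. Its level fell in both organs, by 2.11 on the log2 scale in stomach (SE 0.21, adjusted p = 0.00175, edgeR's quasi-likelihood test) and by 2.02 in intestine (SE 0.21, adjusted p = 0.00464). In adult intestine it did not pass the test: control libraries had 406 and 477 counts and the libraries labelled Eed KO had 256 and 324 (log2 fold change -0.32, adjusted p = 0.317).

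Embryonic libraries held between 30236159 and 39606157 counts in genes, so that 3 counts, taken as the floor of detection, correspond to 0.0757 to 0.0992 CPM, the counts scaled to library size. Mesenchymal markers were abundant in every embryonic library (summed level of 7 markers, 11143 to 19199 CPM). Of 16218 genes tested in stomach, 785 rose and 131 fell in Eed KO, and in intestine 386 rose and 37 fell, where passing took a log2 fold change past 1 together with an adjusted p below 0.05. Scaling by the SIRV spike-in RNAs in place of the genes moved the median log2 fold change of all genes to 2.40 in stomach (16386 genes higher, 18 lower) and 1.86 in intestine (13774 higher, 20 lower). That scaling also changed which genes passed the filter on low counts, so that 17739 genes were tested, and changes below are relative to the typical gene. With 1 spike-in factor removed by RUVg the split was 377 to 330 in stomach and 321 to 158 in intestine. In these bulk samples, more cells that express a gene and more RNA per cell cannot be told apart.

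In stomach, 6 LIM homeobox genes rose in Eed KO mesenchyme: Lhx6, Lhx8, Lmx1b, Lhx1, Lhx2 and Lmx1a. These are the 6 of 9 members that passed the filter on low counts, and several passed it only because of their level in Eed KO libraries, so the count is a description (4.84% of all tested genes rose and 0.808% fell). Both Eed KO libraries lay above both control libraries for each of the 6, an arrangement found for 27.7% of tested genes.
Lhx6, which directs the maturation of cortical interneurons that leave the medial ganglionic eminence, had 10 and 13 counts in the control libraries and 377 and 445 in Eed KO. The mean was 0.311 ± 0.0294 CPM in the controls and rose to 11.2 ± 1.48 CPM (SD, n = 2), a log2 fold change of 5.15 (SE 0.34, adjusted p = 0.000406). Lhx6 thus went from a few reads to the highest level among the 9 members, with no overlap of the groups.
Lhx8, a relative of Lhx6 needed for forebrain cholinergic neurons, tooth and oocyte development, had 0 and 0 counts in control stomach and 98 and 107 in Eed KO. Against the floor of 3 counts over the control group it was at least 68.3-fold higher (adjusted p = 0.0024). It was the one of the 6 with no read in either control library.
Lmx1b, which gives limbs their dorsal identity and is required for serotonergic neurons and kidney podocytes, had 1 and 0 counts in control libraries and reached 57 and 127 with Eed lost, a ratio of 184 with a 95% counting interval of 32.6 to 7305 (exact, from the summed counts; adjusted p = 0.0135). Lhx1, needed for the head organizer and for kidney and urogenital tract, had 1 and 2 counts in control libraries and reached 42 and 38 with Eed lost, a ratio of 26.7 (8.80 to 132, adjusted p = 0.0393). All these intervals cover counting error only.
Lhx2, which acts in the eye field, cortex and hair follicle, had 12 and 36 counts in control libraries and reached 174 and 248 with Eed lost (0.633 ± 0.403 and 5.73 ± 1.51 CPM, log2 fold change 3.15, SE 0.55, adjusted p = 0.0162). Lmx1a, a determinant of midbrain dopamine neurons and the roof plate, had 19 and 14 counts in control libraries and reached 46 and 50 with Eed lost (log2 fold change 1.52, SE 0.33, adjusted p = 0.0316). Lmx1a was the one with the smallest change, and it had more control reads than Lhx6.

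The calls for Lhx6 and Lhx8 held when any 1 of the 4 stomach libraries was left out (adjusted p from 0.00158 to 0.00993 and from 0.00848 to 0.0179). Lmx1b was not called without control replicate 1 (adjusted p = 0.0779) or control replicate 2 (0.106), and Lhx2 was not called without control replicate 1 (0.0936) or Eed KO replicate 2 (0.0812). Lhx1 and Lmx1a were not called without any 1 of the 4 (Lhx1, 0.0972 to 0.206; Lmx1a, 0.0846 to 0.19). DESeq2 did not call Lmx1a (0.0709), and with 1 RUVg factor it called neither Lmx1b (0.0556), Lhx2 (0.3), Lhx1 (0.364) nor Lmx1a (0.538). The size of 2 of these changes depended on single libraries. For Lhx2 the log2 fold change was 4.03 without control replicate 2 and 2.63 without control replicate 1. For Lmx1b it was 6.27 without control replicate 2 and 6.48 without Eed KO replicate 2, against 9.49 without control replicate 1, where the control that is left has no reads and the prior count sets the value.

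**Figure D1:**
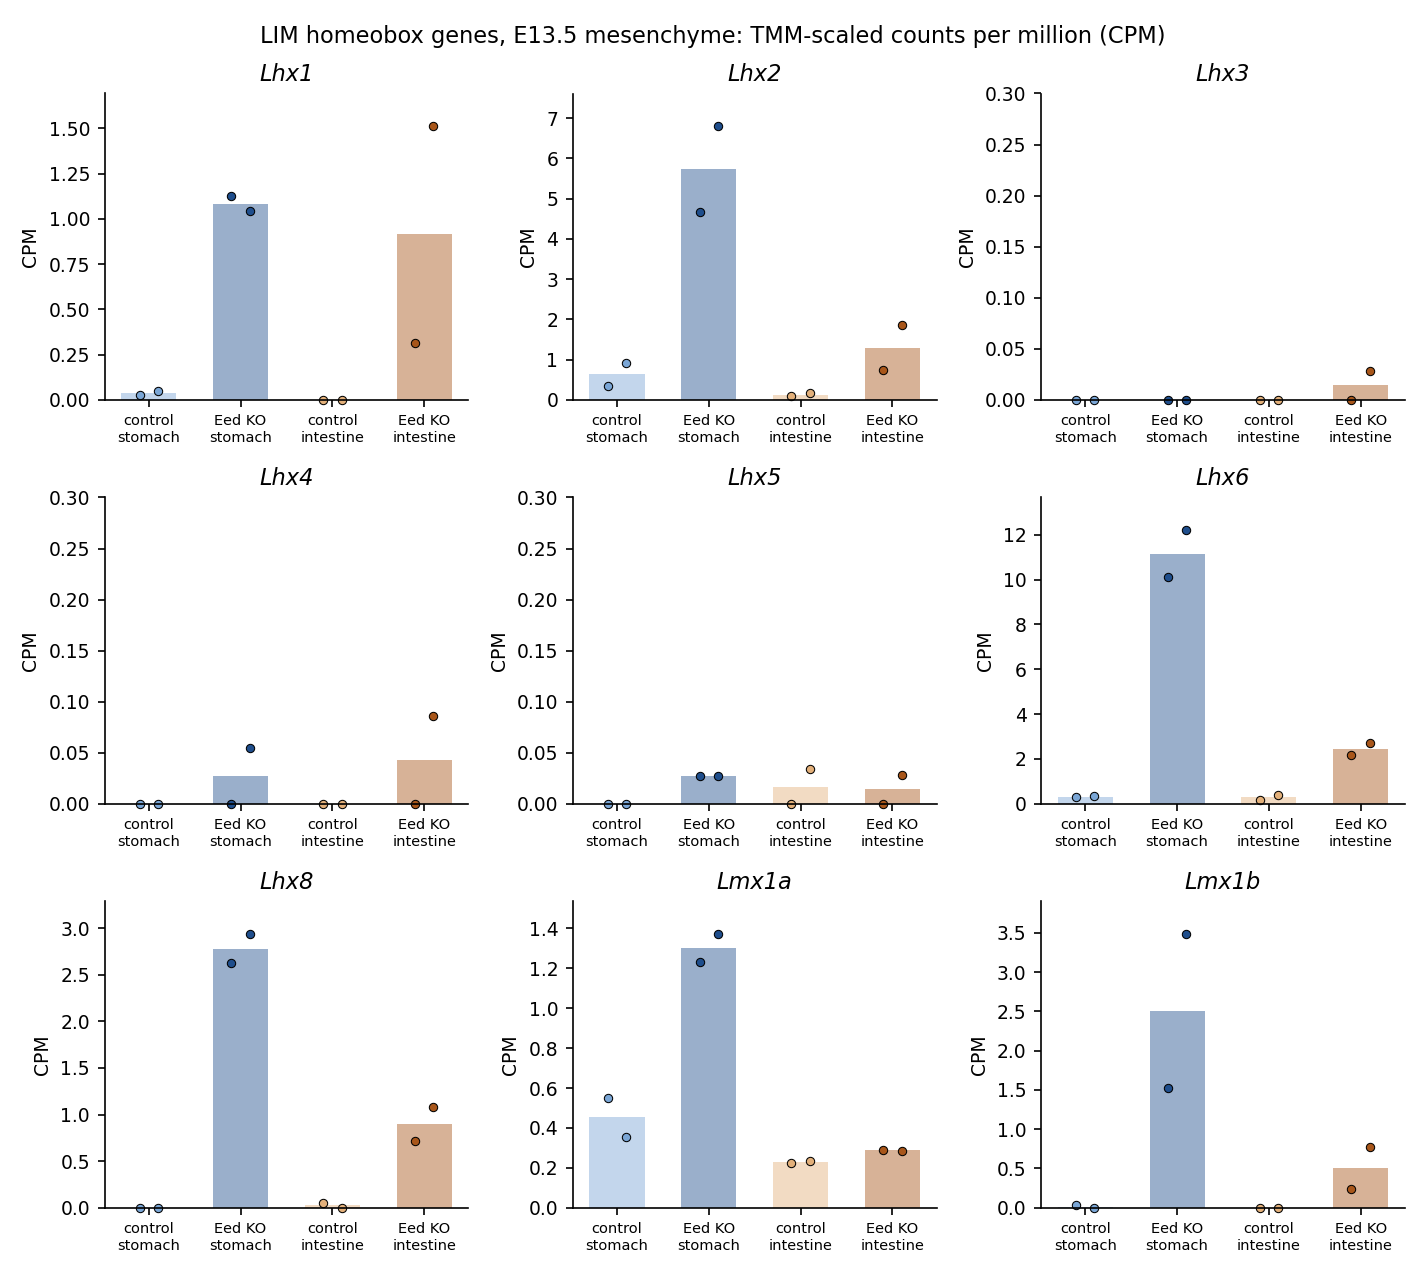
TMM-scaled CPM (y axes, linear, 1 scale per gene) of the 9 LIM homeobox genes in the 4 embryonic groups; points are libraries and bars are means of 2. Lhx6 stands at 10.1 and 12.2 CPM in Eed KO stomach against 0.29 and 0.331 in control stomach, while Lhx3, Lhx4 and Lhx5 stay under 0.1 CPM in every library.

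In intestine, Lhx6 and Lhx8 rose in Eed KO mesenchyme, and the other 4 tested members did not pass the test (2.38% of all tested genes rose and 0.228% fell). For all 6 both Eed KO libraries were above both controls, as for 21.8% of tested genes.
Lhx6 had 6 and 12 counts in control intestine and 82 and 95 in Eed KO (0.286 ± 0.166 and 2.44 ± 0.387 CPM, log2 fold change 3.11, SE 0.36, adjusted p = 0.0072). Lhx8 had 2 and 0 counts in control libraries and reached 27 and 38 with Eed lost, a ratio of 29.1 (7.74 to 245, adjusted p = 0.024). The rise of both was therefore seen in each organ, from control levels close to the floor.
Lhx1 had no reads in the control libraries and 12 and 53 in Eed KO, at least 19.4-fold higher against the floor (adjusted p = 0.0548). Lhx2 had 3 and 5 counts in control libraries and reached 28 and 65 with Eed lost (log2 fold change 3.35, SE 0.74, adjusted p = 0.0619). Lmx1b had no reads in control and 9 and 27 in Eed KO, at least 10.7-fold higher (adjusted p = 0.0988). In these 3 genes replicate 2 had more reads than replicate 1, and the spread between the Eed KO libraries was wide.
Lmx1a had 8 and 7 counts in control libraries and reached 11 and 10 with Eed lost (log2 fold change 0.32, SE 0.41, adjusted p = 0.887), so a change like that in stomach was not detected.

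Lhx6 lost its call without control intestine replicate 1 (adjusted p = 0.0528) and kept it without each of the other libraries. Its log2 fold change was 2.58 without control replicate 1 and 3.82 without control replicate 2. Lhx8 lost it without control replicate 1 (0.0885), control replicate 2 (0.102) or Eed KO replicate 2 (0.0726). For Lhx8 the fitted log2 fold change was 3.91 without control replicate 2 and 8.01 without control replicate 1, where the control that is left has no reads and the prior count sets the value. Lhx1 (0.00881) and Lhx2 (0.0343) passed when Eed KO replicate 1 was left out. DESeq2 called 5 members higher, with adjusted p of 0.000536 for Lhx1, 0.000314 for Lhx2 and 0.00275 for Lmx1b, whereas with 1 RUVg factor it called Lhx6 and Lhx8.

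**Figure D2:**
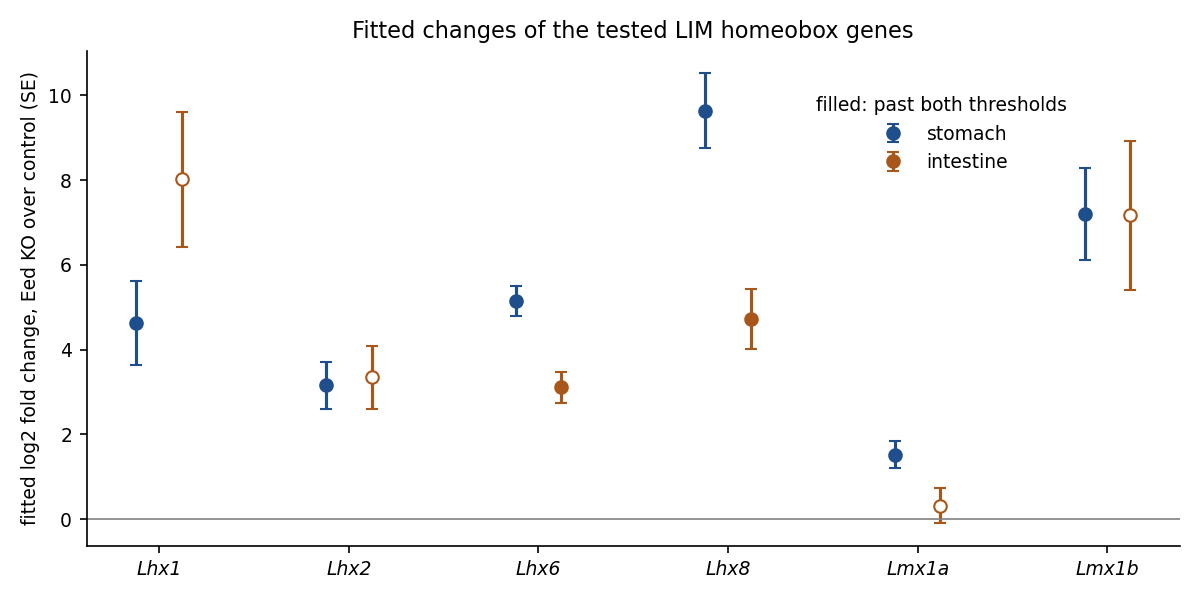
Fitted log2 fold change of Eed KO over control with its SE (y axis) for the 6 tested members, stomach in blue and intestine in brown, with filled points past both thresholds. The SE was derived from the log2 fold change and the test's F, so it too depends on the prior count where control libraries hold no reads. All 6 are filled in stomach, and Lhx6 and Lhx8 are filled in intestine; the values for Lhx8 in stomach and for Lhx1 and Lmx1b in intestine are set by the prior count because the control libraries hold no reads.

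The Eed KO replicates were also compared with each other. Replicate 2 was above replicate 1 in stomach and in intestine for 4 of the 6 tested members (Lhx2, Lhx6, Lhx8 and Lmx1b), as for 37.6% of all tested genes. Lhx1 was lower in replicate 2 of stomach, and Lmx1a was slightly lower in replicate 2 of intestine. With so few members and libraries this is a description. Residual Eed was lower in replicate 2 of each organ (270 against 427 counts in stomach, 301 against 407 in intestine), and its part in the members' levels was not tested.

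Lhx3, Lhx4 and Lhx5 stayed at or under the floor in every embryonic group. Lhx3 and Lhx4 are pituitary and motor neuron factors, and Lhx5 is a close relative of Lhx1 that acts in forebrain and cerebellum. Lhx3 had 1 read in the 8 libraries, in Eed KO intestine replicate 2. Lhx4 had 3 reads in Eed KO intestine replicate 2 and 2 in Eed KO stomach replicate 2, and none elsewhere. Lhx5 had 1 read in each Eed KO stomach library, 1 in control intestine replicate 2 and 1 in Eed KO intestine replicate 2. At this depth a change in these 3 genes could not be seen, and no fold was computed.

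Scaled for gene length, as TPM (transcript counts per unit length and library size), the members differed in level within Eed KO stomach. Lhx6 was highest at 7.46 ± 1.2 TPM (SD, n = 2), above the next gene without overlap. Lhx2 (4.20 ± 1.22 TPM) and Lhx8 (3.67 ± 0.389 TPM) followed, and their libraries overlapped. Lmx1b (1.66 ± 0.955 TPM) overlapped with Lmx1a (1.23 ± 0.127 TPM), and Lhx1 came below both at 0.853 ± 0.0228 TPM. In Eed KO intestine the order was Lhx6 (1.54 ± 0.299 TPM), Lhx8 (1.13 ± 0.368), Lhx2 (0.905 ± 0.577), Lhx1 (0.693 ± 0.654), Lmx1b (0.317 ± 0.245) and Lmx1a (0.257 ± 0.00611), and each of the first 5 overlapped with its lower neighbour. In control stomach the highest were Lhx2 (0.437 ± 0.278 TPM) and Lmx1a (0.406 ± 0.124 TPM), which overlapped, and in control intestine Lmx1a (0.203 ± 0.0112 TPM) and Lhx6 (0.18 ± 0.108 TPM), which overlapped too. The member with the highest level was thus a different one in control and Eed KO stomach, but every control level was under 1 TPM.

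**Figure D3:**
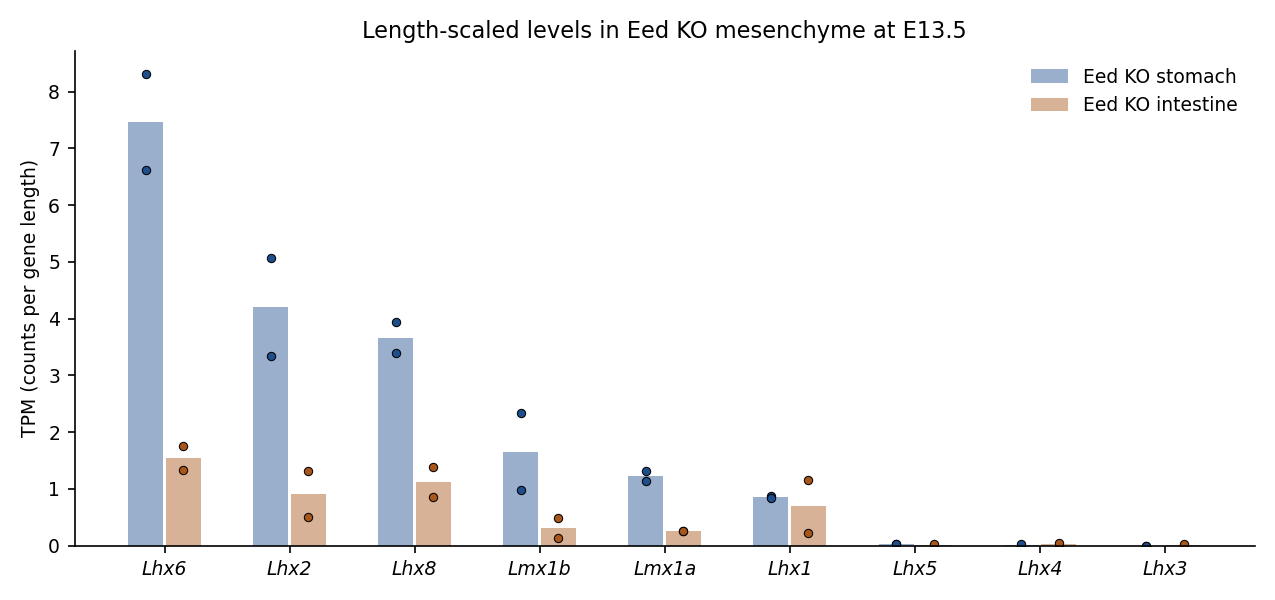
Length-scaled level in TPM (y axis) of each member in Eed KO stomach (blue) and Eed KO intestine (brown), in the order of the stomach means; points are libraries and bars are means of 2. Lhx6 leads in both organs, at 7.46 and 1.54 TPM, and the 3 genes at the right hold almost no reads.

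The Eed KO organs were then compared with each other. Lhx6 was lower in Eed KO intestine than in Eed KO stomach by 2.19 on the log2 scale (-2.19, SE 0.28, adjusted p = 0.00537), and Lmx1a by 2.16 (-2.16, SE 0.35, adjusted p = 0.0127); of all tested genes, 2.94% were lower and 1.46% higher in intestine. Lhx2 (-2.15, adjusted p = 0.0544), Lhx8 (-1.63, 0.071), Lmx1b (-2.32, 0.103) and Lhx1 (-0.26, 0.885) did not pass. For 5 of the 6 both stomach libraries exceeded both intestine libraries, an arrangement of 23.9% of tested genes, and Lhx1 was the exception, with 42 and 38 counts against 12 and 53. The call for Lhx6 held without any 1 library (0.0178 to 0.0385). That for Lmx1a was lost without Eed KO intestine replicate 1 (0.0651) or 2 (0.0627), or without Eed KO stomach replicate 1 (0.0558) or 2 (0.0806). DESeq2 called 5 members lower in intestine, and spike-in scaling called none (Lhx6 0.229, Lmx1a 0.396).

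Between the control organs no member passed edgeR's test (3.39% of tested genes were lower and 1.68% higher in intestine); 2 had an unadjusted p under 0.05, and DESeq2 called Lhx2. Lhx2 had 3 and 5 counts in control intestine and 12 and 36 in control stomach (log2 fold change -2.35, SE 0.79, adjusted p = 0.157; 0.0255 with DESeq2). Lmx1a had 8 and 7 against 19 and 14 counts (-0.96, SE 0.39, adjusted p = 0.255). Lhx6 had 6 and 12 against 10 and 13 (-0.16, SE 0.45, adjusted p = 0.942), with a sign that turned under spike-in scaling. Lhx1, Lhx3, Lhx4, Lhx5, Lhx8 and Lmx1b were at or under 3 summed counts in both control organs, and no fold was computed for them.

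Whether loss of Eed acted differently in the 2 organs was tested with the interaction of organ and genotype, at an adjusted p under 0.2. No member passed with edgeR, although Lhx6 and Lhx8 had an unadjusted p under 0.05 and DESeq2 called Lhx6 (0.191% of tested genes had a larger and 0.271% a smaller change in intestine). For Lhx6 the change in intestine minus that in stomach was -2.04 on the log2 scale (SE 0.53, adjusted p = 0.426; 0.0842 with DESeq2). For Lhx8 the adjusted p was 0.812, and no size is given because control stomach held no reads. Lmx1a had an interaction of -1.20 (SE 0.54, adjusted p = 0.872). A difference between organs in the response of these genes was not shown by the main test.

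A peak was called near every member's start in each condition. All 9 members had a peak within 1000 bp of the start in each of the 4 lists, control intestine, control stomach, Eed KO intestine and Eed KO stomach, as had 45.4%, 46.3%, 47.5% and 47.4% of all genes with a start and 88.0%, 88.4%, 89.1% and 89.1% of the genes tested for RNA. Each list was called on pooled replicates, so these values carry no error and no test. Some of these peaks were weak. Near the outer start at a -log10 q of at least 5, Lhx5 had none in any list. Lhx4 had one in Eed KO stomach alone, and Lhx2 had none in Eed KO intestine. Around the RefSeq starts, Lmx1b had a peak in Eed KO stomach alone. At inner RefSeq starts, the -log10 q over the 4 lists was 9.26 to 16.2 for Lhx4 and 43.7 to 77.1 for Lhx2.
The enrichment was low for most members. Lhx6 had a fold enrichment of 3.06 in control stomach, 2.80 in Eed KO stomach, 3.15 in control intestine and 2.90 in Eed KO intestine. Over 14085 tested genes with a promoter peak in every list, the medians in the same order were 6.85, 6.77, 6.95 and 6.53. The Lhx6 peak was thus of similar low strength in control cells, where a few reads were found, and in Eed KO cells.
Lhx8 had 3.20 in control stomach and 2.83 in Eed KO stomach, and 3.88 and 2.79 in intestine. Lhx1 had 3.05 and 2.81 in stomach, and 4.25 and 2.69 in intestine. Lmx1a had 4.96 and 3.91 in stomach, and 5.77 and 3.88 in intestine. The value was lower in Eed KO than in control in both organs for these 3 genes and for Lhx2, Lhx3, Lhx5 and Lhx6 as well, and the median ratio of Eed KO to control over all promoters was also under 1, at 0.990 in stomach and 0.952 in intestine.
Lmx1b was at 4.22 in control stomach and 4.97 in Eed KO stomach, and at 4.83 and 4.65 in intestine. Lhx2 was at 3.62 and 3.23 in stomach, and at 3.84 and 2.74 in intestine. Lhx5 was the least enriched, between 2.44 and 2.82 in the 4 lists.
Lhx3, the gene with a single read, had the strongest promoter peak of the family, with a fold enrichment of 8.91 in control stomach, 8.36 in Eed KO stomach, 9.37 in control intestine and 7.77 in Eed KO intestine. Its peak was above 77.0%, 71.7%, 81.4% and 67.4% of the promoter peaks of tested genes in those lists. Within the family, then, the strength of the promoter peak did not order the genes as their RNA did.
Lhx4, whose peak lies downstream of its start, was enriched 5.26-fold in Eed KO stomach against 3.45-fold in control, a ratio of 1.52 where the ratio of all promoters had a 10th percentile of 0.865 and a 90th of 1.13. In stomach Lmx1b (1.18) was also above the 90th percentile and Lmx1a (0.788) was under the 10th, while the other 6 members lay between them. In intestine Lhx1 (0.633), Lmx1a (0.673), Lhx2 (0.714) and Lhx8 (0.718) had ratios of Eed KO to control under the 10th percentile of all promoters there, 0.814 (median 0.952). These ratios are for peaks near the outer start. At its inner RefSeq start Lhx4 had 3.38 in control stomach and 3.59 in Eed KO stomach. Lhx2 at its own had 5.00 in control intestine and 4.63 in Eed KO intestine. The ratios of Lhx4 and Lhx2 thus depend on the start used. For Lmx1b no ratio could be formed at the RefSeq start, where only the Eed KO stomach list had a peak.
The width of the peaks differed as well, and the Eed KO lists cover more of the genome. The peak at Lhx8 spanned 1030 bp in control stomach and 4884 bp in Eed KO stomach, and that at Lmx1a 1276 and 4245 bp. In intestine these widths differed less, at 2743 bp in control and 3331 bp in Eed KO for Lhx8, and 1209 and 1779 bp for Lmx1a. The peak at Lmx1b spanned 627 and 695 bp, and that at Lhx2 3102 and 1425 bp. The peak that covers the windows printed for Lhx6 spanned 3702 bp in control stomach and 4521 bp in Eed KO stomach.

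**Figure D4:**
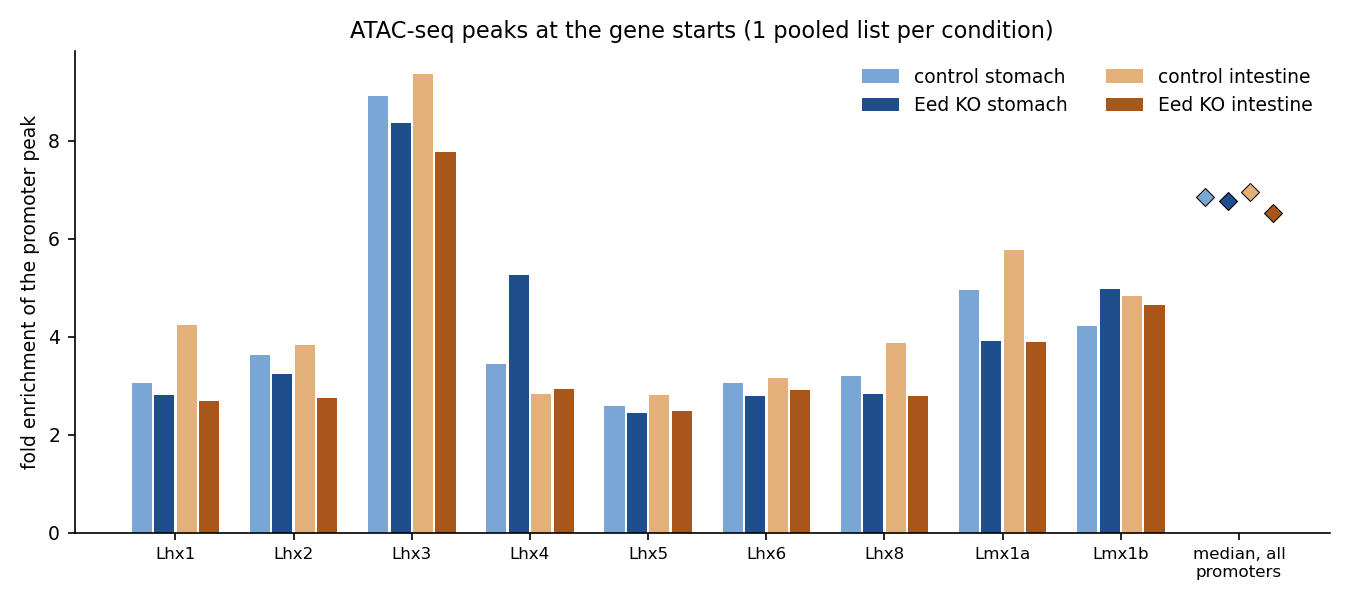
Fold enrichment (y axis) of the strongest ATAC-seq peak within 1000 bp of the start of each member, 1 bar per pooled peak list, with the median over 14085 promoters as diamonds at the right. Only Lhx3, between 7.77 and 9.37, stands above the medians of 6.53 to 6.95.

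Other LIM homeodomain genes were compared as the nearest relatives. Lhx9, the sister gene of Lhx2 that acts in gonad and limb, had 400 and 546 counts in control stomach and 1909 and 1800 in Eed KO stomach (log2 fold change 1.98, SE 0.32, adjusted p = 0.0116). In intestine it had 2 and 0 counts in control libraries and reached 56 and 116 with Eed lost, a ratio of 77 (21.0 to 641, adjusted p = 0.00817). Unlike the 9 members it already had a clear level in control stomach, where it was higher than in control intestine (adjusted p = 0.000506).
Isl1, a motor neuron and pylorus factor, had 2295 and 1653 counts in control stomach and 1781 and 1248 in Eed KO stomach (log2 fold change -0.41, adjusted p = 0.437). In intestine it rose from 123 and 147 to 580 and 395 (1.67, SE 0.31, adjusted p = 0.0348). Isl2 had between 322 and 535 counts in the 8 libraries and no call in any comparison.
LIM-only proteins compete with these factors for the shared adaptor. Of the 4 LIM-only genes, Lmo2, an endothelial and blood cell regulator, rose in stomach (17 and 25 counts to 75 and 56; log2 fold change 1.64, SE 0.33, adjusted p = 0.0248) and in intestine (9 and 13 to 75 and 68; 2.51, SE 0.35, adjusted p = 0.0132). The other 3 did not pass in either organ. Endothelial markers moved with it: their summed level was 14.3 to 15.2 CPM in control stomach and 23.7 to 43.8 in Eed KO stomach, and 14.9 to 19.1 and 43.3 to 44.2 CPM in intestine, with none of the 5 at or under the floor. Of the 5 markers, 3 rose in stomach and 1 in intestine, and their part in the Lmo2 result was not tested.
None of the 6 genes of the Ldb and Ssbp cofactors and the ubiquitin ligase Rlim passed in either organ with edgeR or DESeq2; 1 had an unadjusted p under 0.05 in stomach and 0 in intestine. Their median log2 fold change was 0.05 in stomach and 0.03 in intestine. Ldb1, the adaptor itself, had 4164 to 5372 counts in the 8 libraries.

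**Figure D5:**
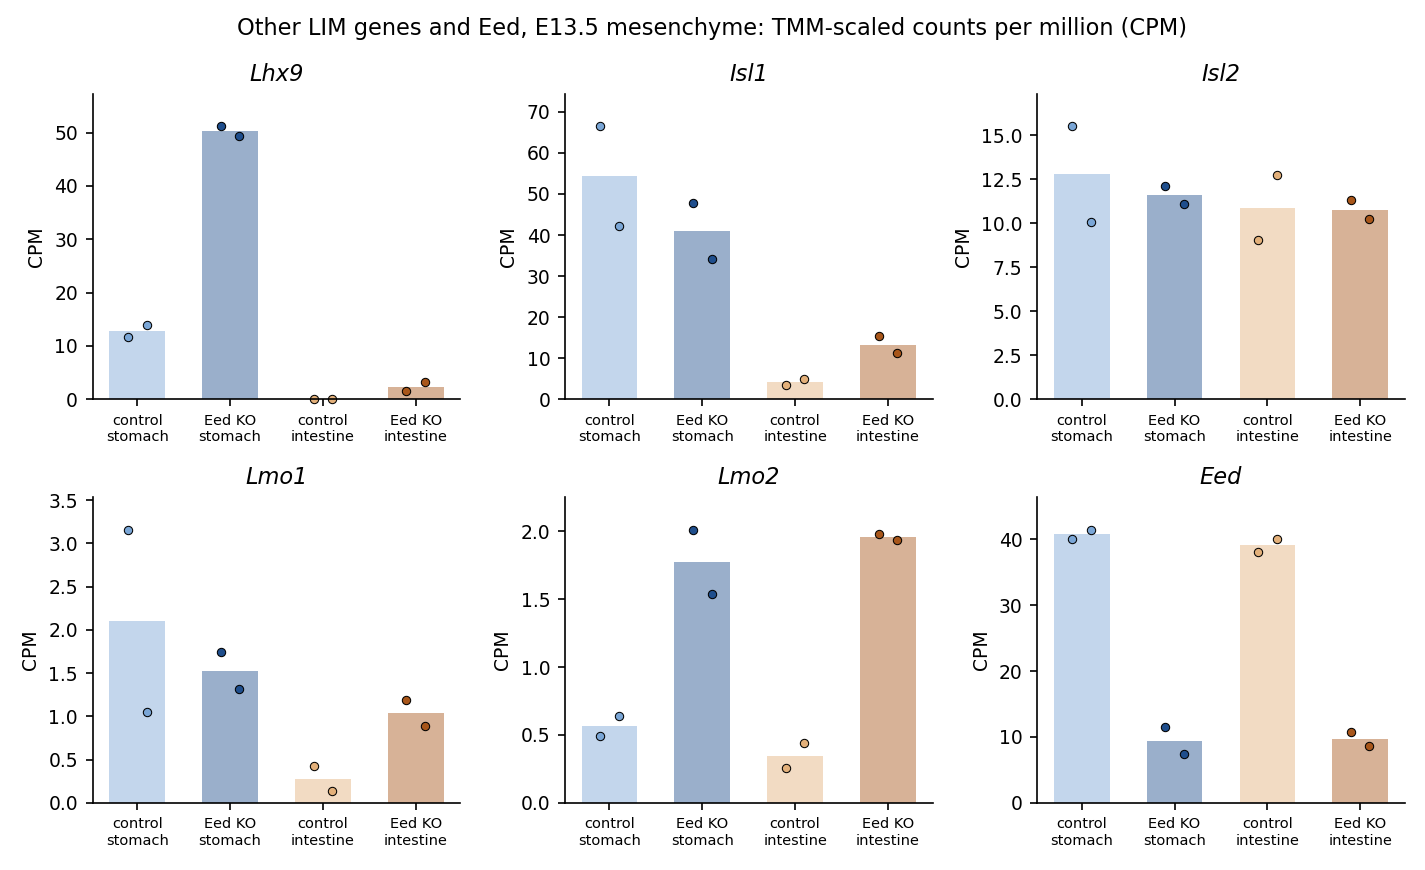
TMM-scaled CPM (y axes, linear, 1 scale per gene) of Lhx9, Isl1, Isl2, Lmo1, Lmo2 and Eed in the 4 embryonic groups; points are libraries and bars are means of 2. Lhx9 is at 12.8 CPM on average in control stomach and 50.3 in Eed KO stomach, and Eed falls from 40.8 to 9.43.

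Genes that work beside LIM homeodomain factors in neurons and pituitary were then counted. Of 18 listed, 10 were tested, of which 6 rose in stomach and 3 in intestine, against 4.84% and 2.38% of all tested genes, and none fell. Several of the 10 passed the filter on low counts only through their level in Eed KO libraries, so the counts and medians are a description (median log2 fold change 3.37 in stomach and 2.45 in intestine with genes at 0 in control set at their bound, against 0.00 and 0.01 over all genes).
En1, a midbrain and ventral limb factor, had no reads in control stomach and 146 and 218 counts in Eed KO (at least 121-fold higher, adjusted p = 0.00448). Pitx3, a dopamine neuron factor, had 1 and 0 counts and then 22 and 24 (ratio 46.0, 7.85 to 1855, adjusted p = 0.0101). Sst, the somatostatin gene and a marker of Lhx6-dependent interneurons and of gut endocrine cells, had 4 and 1 counts and then 67 and 107 (log2 fold change 5.04, adjusted p = 0.00552). Pax2, a partner of Lhx1 in kidney, had 3 and 2 counts and then 55 and 76 (4.64, adjusted p = 0.00376).
In intestine En1, Pax2 and Msx1 passed. Sst had 1 and 2, then 27 and 11 (adjusted p = 0.0838), while DESeq2 called 6 of the 10.
Markers of enteric neural crest and neurons, another source of neural transcripts, summed to between 6.78 and 9.71 CPM in control stomach, and to between 11.1 and 13.7 in Eed KO stomach, and to 7.17 to 8.12 and 8.13 to 12.6 CPM in intestine. None of the 8 was at or under the floor, S100b passed in stomach, none passed in intestine (2 with an unadjusted p under 0.05, 0 with DESeq2), and their part in the rise of LIM homeobox genes was not tested. Epithelial markers summed to between 33.9 and 64.5 CPM, and leukocyte markers to between 3.65 and 12.4 CPM with Ptprc at or under the floor in all 4 groups. Mesothelial markers summed to between 484 and 505 CPM in control stomach and 305 and 403 in Eed KO stomach, and to between 292 and 446 CPM in control intestine and 310 and 311 in Eed KO intestine. They did not move together: in stomach Upk3b and Lrrn4 were lower in both Eed KO libraries, whereas Wt1 and Msln were higher. Wt1 was at 77.2 and 76.2 CPM in control stomach and 112 and 140 in Eed KO stomach. Smooth muscle markers were at 2545 to 2636 CPM in control stomach and 1558 to 1781 CPM in Eed KO stomach. Of these, Myh11 overlapped in stomach, at 130 and 201 CPM in control and 121 and 268 in Eed KO. In intestine the smooth muscle sums overlapped, at 2372 to 3565 CPM in control and 2713 to 4793 CPM in Eed KO.
Limb patterning genes, chosen because Lmx1b and Lhx2 act there, gave 4 higher of 9 tested in stomach (Tbx5, Tbx4, Msx2 and Fgf8) and 4 in intestine (Tbx5, Tbx4, Msx2 and Pitx1), with none lower, where 4.84% and 2.38% of all tested genes rose; the medians were 2.36 and 2.53. Here too some genes passed the filter only through Eed KO libraries, so these values are a description. Tbx5, the forelimb factor, went from 6 and 5 counts to 322 and 421 in stomach (log2 fold change 6.04, SE 0.44, adjusted p = 0.00101), and from 0 and 0 to 95 and 153 in intestine (at least 74.0-fold higher, adjusted p = 0.00344). Tbx4, its hindlimb counterpart, went from 3 and 9 to 110 and 155 in stomach (4.45, SE 0.47, adjusted p = 0.0024).
Of 5 kidney targets of Lmx1b, 4 were tested and none passed in either organ with edgeR or DESeq2, with 1 at an unadjusted p under 0.05 in each; their medians were 1.10 and 1.73.

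The genes whose levels most resembled those of Lhx6, the member with the highest mean CPM, were Zic1, Dsc2, Shox2, Ccng1 and Evx1, with Pearson's r from 0.995 to 0.996 over the 8 embryonic libraries among 13385 genes. The libraries fall into 4 groups, and genes with a like order of groups correlate for that reason. Shox2, a limb and heart factor, was at 0.116 and 0.102 CPM in control stomach, 11.8 and 12.3 in Eed KO stomach, 0.112 and 0.0673 in control intestine and 1.90 and 2.68 in Eed KO intestine. Zic1, a neural and somite factor, had no reads in any control library and 38.2 and 45.6 CPM in Eed KO stomach.

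Transcripts that start next to a member on the opposite strand rose beside 2 members and were too low to be tested beside a further one. AI606473 starts 260 bp from the start of Lhx8 and had 1 and 1 counts in control stomach and 73 and 121 in Eed KO stomach (ratio 97.0, 26.5 to 806, adjusted p = 0.00359). In intestine it had 0 and 0 counts in control libraries and reached 20 and 35 with Eed lost (at least 16.4-fold higher, adjusted p = 0.0214). C130021I20Rik starts 682 bp from Lmx1b and had 0 and 0, then 55 and 85 counts in stomach (at least 46.7-fold higher, adjusted p = 0.0079), and 0 and 0, then 10 and 19 in intestine (adjusted p = 0.0632). Lhx1os, 125 bp from Lhx1, had 1 and 0, then 20 and 8 counts in stomach, and 0 and 0, then 4 and 6 in intestine, and did not pass the filter. These 3 were named after their values were seen. Their gene models do not overlap the members, but the strand setting of the embryonic counting is not given in the sources used here.

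In adult intestinal mesenchyme the 9 members were close to silent. Their relative Isl2 was not, with 126 and 152 counts in control and 51 and 58 in the libraries labelled Eed KO. Adult libraries held 11404712 to 15903642 counts, so that 3 counts equal 0.189 to 0.263 CPM. No member passed the filter on low counts among 15039 tested genes, of which 12.3% were higher and 7.23% lower in the libraries labelled Eed KO. Lhx2, Lhx3, Lhx5, Lhx8 and Lmx1b had no read in any of the 4 libraries. Lhx1 had 7 and 0 counts in control and 1 and 6 in the libraries labelled Eed KO, which overlapped. Lhx4 had 3 and 0 and then 1 and 0, Lmx1a 0 and 3 and then 0 and 0, and Lhx6 0 and 0 and then 0 and 2. Differences of the size seen for Lhx6 in E13.5 intestine, 0.286 to 2.44 CPM, would have been above the adult floor. Eed itself did not pass the test between the adult groups, so these reads cannot tell whether the members respond to its loss there. Leukocyte markers differed between the adult groups, with a summed level of 527 to 617 CPM in control and 9322 to 11115 CPM in the libraries labelled Eed KO; all 5 were higher there and none was at or under the floor. Mesenchymal markers were at 8868 to 9171 CPM in control and 2623 to 3726 CPM in those libraries, with 3 of 6 tested lower and Nkx3-2 at or under the floor in both groups. Lmo2 rose in that comparison (14 and 18 counts to 80 and 134; log2 fold change 3.00, adjusted p = 0.0043), and the part of the leukocyte markers in it was not tested.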

How the data were processed

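RNA was measured in 12 libraries and chromatin accessibility in 4 pooled peak lists. The authors trimmed reads with Trimmomatic 0.32, aligned RNA reads with STAR 2.5.1b to GRCm38/mm10 and counted them with featureCounts; the deposited values are raw counts per gene, with SIRV spike-ins. The authors aligned ATAC-seq reads with BWA, pooled replicates and called peaks with MACS2 2.1.2; the deposited lists give fold enrichment, -log10 q and a score, and 13.5% to 20.0% of their peaks have a q above 0.01. The score was not used.

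Counts were fitted with edgeR 4.0.16 (R 4.3.3): TMM scaling, filterByExpr and the quasi-likelihood test in 1 model of the 4 embryonic groups, and a separate adult model. Adjusted p is Benjamini-Hochberg over all tested genes. The SE given with a log2 fold change is its absolute value divided by the square root of the F of the quasi-likelihood test. DESeq2 1.42.0, other scalings, filters, blocks and left-out libraries were alternatives. TPM was computed from gene lengths in the adult files. On simulated data, 98% of stomach genes and 96% of intestine genes with a log2 change of 3 were recovered (16218 genes), and 93% of adult genes (15039 genes). With a log2 change of 2 these shares were 90%, 88% and 66%. The changed genes were drawn at random from all tested genes. The shares therefore do not describe genes with almost no reads in control. Promoter peaks overlapped 1000 bp either side of the outer gene start (GENCODE vM4). Intervals are exact at 95%.

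The members and the gene lists were chosen with earlier results of these data known. All members were named, and from lists up to 5 called genes per comparison, by size. The most alike genes were the 5 with the highest r of log2(CPM + 0.5) among genes with a mean of at least 1 CPM. The values of 1 listed gene are not reported here.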

Additional observations from a re-analysis of the deposited data

How the results depend on the processing

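Every alternative kept the direction of the called members, while the number of calls and the size of some changes moved. In stomach, 6 members were called higher. DESeq2 did not call Lmx1a, and with 1 RUVg spike-in factor it called 2 (Lhx6 and Lhx8). The study used RUV-seq on the spike-ins before DESeq2, so this last setting is the nearest to its method. The number of factors the study removed is not stated. In intestine, 2 were called, but 5 with DESeq2, without the filter on low counts or with a replicate block by number, and 6 with spike-in scaling. Between Eed KO organs 2 were called, but 5 with DESeq2, without the filter, with 1 RUVg factor or with a replicate block by number or by number within genotype, and 0 with spike-in scaling. Between control organs 0 were called, but 1 (Lhx2) with DESeq2, without the filter, with RUVg or with either block. For the interaction 0 were called, but 1 (Lhx6) under those same 5 settings. Leaving out 1 library gave 2 to 4 members in stomach, 0 to 4 in intestine, 1 to 2 between Eed KO organs, and 0 between control organs, in the interaction and in adults. A prior count of 2 changed none of these counts.

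Of the single values not called, Lhx6 between control organs turned from -0.16 to 0.11 with spike-in scaling and ranged from -0.87 to 0.38 with 1 library left out, and Lhx1 between Eed KO organs ranged from -1.76 to 0.48. The cause was not tested. With spike-in scaling Lhx6 changed by 7.58 in stomach and 5.03 in intestine, which is 5.18 and 3.17 relative to the median shift.

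Spike-in scaling also changed which genes passed the filter, with 17739 tested in place of 16218 in embryos and 15222 in place of 15039 in adults. Over all genes, it gave 16404 calls in place of 916 in stomach, 13794 in place of 423 in intestine, 150 (68 higher, 82 lower) in place of 822 between control organs, 114 (19 higher, 95 lower) in place of 714 between Eed KO organs and 20 (0 higher) in place of 75 in the interaction. In adults it gave 1156 higher and 1313 lower, in place of 1856 and 1088, and it moved the median by 0.29, -0.25, -0.53 and -0.41 in the last 4 of these comparisons. In intestine DESeq2 gave 685 calls and no filter 800. For the interaction, DESeq2 gave 207, no filter 237, RUVg 243 (136 higher, 107 lower), the block by number 187 and the block by number within genotype 350, which also gave 1131 between Eed KO organs. With 1 library left out the counts ranged from 344 to 650 in stomach, 74 to 363 in intestine, 370 to 500 between control organs, 304 to 528 between Eed KO organs and 27 to 97 in the interaction.

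Samples with the same number share only that number in the sources. Their deviations from group means correlated at 0.265 between control organs and 0.628 between Eed KO organs, at 0.047 to 0.151 across genotypes and at -0.06 in adults. A lone library left in a group is assumed to vary like the other groups.

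Promoter peaks were found for 7, 7, 6 and 8 members at a -log10 q of at least 5 (control intestine, control stomach, Eed KO intestine, Eed KO stomach), for 9 in each list at a q of 0.01 and a fold enrichment of 2 or with a 5000 bp window, for 8, 7, 7 and 7 with 500 bp of overlap, and for 7, 7, 7 and 8 of 8 at a RefSeq start, an alternative chosen after seeing the data. Few reads in control libraries limit the folds of Lhx8, Lmx1b and Lhx1.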

Other observations

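Peaks were also counted over each gene body with 5 kb on either side, without a test. Lmx1b had 16 peaks covering 11.4 kb in control stomach and 18 covering 17.4 kb in Eed KO stomach, at a mean fold enrichment of 3.56 and 3.54. In intestine it had 16 covering 9.26 kb and 17 covering 12.1 kb, at 4.00 and 3.59. Lmx1a had 12 peaks covering 9.70 kb in control stomach and 15 covering 15.5 kb in Eed KO stomach, at 3.57 and 3.62. Lhx8 had 5 covering 3.55 kb and 3 covering 6.95 kb, at 3.32 and 3.07. At Lhx5 the covered length was 3.60 kb in control stomach and 6.7 kb in Eed KO stomach. It was 5.39 and 6.59 kb at Lhx6, and 1.87 and 2.47 kb at Lhx3. Little differed at Lhx1 (6.23 and 6.38 kb), Lhx2 (7.66 and 7.60 kb) and Lhx4 (9.31 and 9.19 kb). No share over all genes was computed. The peak lists covered 80.4 Mb in control stomach and 87.7 Mb in Eed KO stomach, 73.8 Mb in control intestine and 86.3 Mb in Eed KO intestine.

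The tested genes nearest to each member, 2 on either side, numbered 36. Of these, 3 rose in Eed KO stomach, where 4.84% of all tested genes rose, and 2 in Eed KO intestine, where 2.38% rose, and none fell, with medians of 0.15 and 0.04 on the log2 scale. Those that rose were Tbx5, 547 kb from Lhx5, and the neighbours of Lhx8 and Lmx1b that start within 1 kb, AI606473 and, in stomach, C130021I20Rik. Lhx5 itself had 4 reads in all embryonic libraries. These genes were chosen after their values were seen.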
